A study of Mus musculus with 4 samples.

Results

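The transcripts of β-catenin, of its destruction complex and of the Dishevelled proteins were followed as 10 genes: Ctnnb1, Apc, Axin1, Gsk3a, Gsk3b, Csnk1a1, Btrc, Dvl1, Dvl2 and Dvl3. The genes were chosen by the roles of their proteins, with earlier results of these data known. They are 10 of 55399 genes in the deposited count table, and all 10 were among the 16393 genes abundant enough to be tested. The table holds bulk RNA-seq of mouse bone marrow cells labelled Lsk, a name usually given to the primitive fraction that lacks lineage markers, carries Sca-1 and Kit, and holds the haematopoietic stem cells. Of the 4 libraries, 2 carried the genotype label Ppm1bfl/fl and 2 the label Ppm1bCKO. In Ppm1bfl/fl, loxP sites flank part of Ppm1b, a gene for a magnesium- or manganese-dependent protein phosphatase, and Ppm1bCKO denotes its conditional knockout. The sources used here name no Cre driver, no age or sex of the mice and no pooling of animals. Because the title of the series names the Wnt/β-catenin pathway, the question here was whether the transcripts of the pathway's central switch differed between the genotypes. The labels do not say that replicates were separate animals, and a p-value then reflects only the spread between these libraries, which may be technical.

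In the absence of a Wnt ligand, β-catenin is held by the scaffold proteins APC and AXIN1. Casein kinase 1α phosphorylates it first, the kinases GSK3α and GSK3β then phosphorylate it further, and the ubiquitin ligase receptor β-TrCP (encoded by Btrc) binds the phosphorylated stretch and sends the protein to the proteasome. When a Wnt ligand binds its receptors, Dishevelled proteins recruit AXIN1 to the membrane, β-catenin escapes destruction and enters the nucleus, where it works with TCF and LEF factors. The switch acts on protein, by phosphorylation and turnover. RNA counts measure how much template each component has and say nothing of phosphorylation or of the amount of β-catenin protein. In haematopoietic stem cells the dose of this signal is known to matter for self-renewal and differentiation.

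The stretch on which the complex acts is shown because the kinases mark it and the product of Btrc reads it. It lies in exon 3 of Ctnnb1, on the plus strand of chromosome 9 at chr9:120950602-120950643 (mm10), inside an exon that the deposited counts include. The letters are codons 32 to 45 of a reading frame of 781 codons, taken from the GENCODE M21 transcript, 5′ to 3′. Capitals mark codons 33, 37, 41 and 45, which encode the serine, serine, threonine and serine that are phosphorylated. The matching stretch of Jup, the gene for the related junction protein plakoglobin, is given beside it, from codons 23 to 36 in exon 2 (minus strand, chr11:100386273-100386314), with codons 24, 28, 32 and 36 in capitals.
Ctnnb1: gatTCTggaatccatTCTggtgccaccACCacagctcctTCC
Jup: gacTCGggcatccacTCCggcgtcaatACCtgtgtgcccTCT
The stretches share 26 of 42 bases, and the capital codons encode serine, serine, threonine and serine in the same order and spacing in both.

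Total counts per library ran from 22393973 to 30045382, and the members had between 589 and 10281 reads per library. Ppm1b was not lower where it was labelled as knocked out. It stood at 80.8 and 82.5 CPM (counts scaled to library size with edgeR's TMM factors) in Ppm1bfl/fl, against 84.3 and 121 CPM in Ppm1bCKO, a log2 fold change of 0.33 ± 0.20 (SE; edgeR adjusted p = 0.717). It was 0.05 without Ppm1bCKO replicate 2 and 0.56 without replicate 1 (edgeR adjusted p = 0.0075). A gene-level count does not show whether an exon was removed, so every direction below rests on the labels. Kit stood at 228 and 194 CPM in Ppm1bfl/fl, against 187 and 121 CPM in Ppm1bCKO. Ly6a, which encodes Sca-1, ran from 17.7 to 22.2 CPM, and its genotypes overlapped. The 10 markers of Lsk cells summed to 370 to 564 CPM. Of these, 9 had negative and 1 had a positive log2 fold change, and the sums of the genotypes overlapped. Transcripts of mature cells were present in every library, and no marker was at 0. The sums of 6 erythroid markers (5960 to 14400 CPM) and 6 neutrophil markers (3750 to 4550 CPM) overlapped between genotypes. The summed level of 6 eosinophil markers was 2960 and 3270 CPM in Ppm1bfl/fl, against 4480 and 7900 CPM in Ppm1bCKO. B cell, plasmacytoid dendritic, and T and NK cell markers (6 each) were also higher in sum in both Ppm1bCKO libraries. The sum of 8 plasma cell markers was 2810 and 1690 CPM, against 765 and 1020 CPM, and that of 9 macrophage markers 529 and 558 CPM, against 340 and 430 CPM. By edgeR, 0 genes of each list were called, and the part of these cells in the members' values was not tested. The values therefore describe all the cells collected, and in bulk RNA a smaller number of cells of a type and less RNA per cell cannot be told apart. Ppm1bCKO replicate 2 stood apart from the other libraries by transcript length, as described below.

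None of the 10 members passed the test between the genotypes. Ctnnb1 itself stood at 239 and 229 CPM in Ppm1bfl/fl, against 225 and 208 CPM in Ppm1bCKO. All 4 values lie close together, with both Ppm1bCKO libraries just under both Ppm1bfl/fl libraries. The means were 234 ± 6.87 and 217 ± 12.2 CPM (SD, n = 2), and the log2 fold change was -0.11 ± 0.16 (SE; edgeR adjusted p = 0.832). Its 95% interval ran from -0.47 to 0.25, so a level from 28% lower to 19.1% higher lies within the error of this comparison. The estimate was -0.05 when Ppm1bCKO replicate 2 was left out and -0.17 when replicate 1 was. The gene (ENSMUSG00000006932.17) spans 120929216 to 120960507 on chromosome 9.

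Over the whole table, 0.372% of tested genes passed the threshold (edgeR adjusted p under 0.05), 0.061% as higher and 0.311% as lower in Ppm1bCKO, and 0 of 10 members did, with adjusted p from 0.717 to 0.932. At an unadjusted p under 0.05 there were 0 members, against 6.44% of tested genes. DESeq2 and limma-voom also called 0 members. Of the 10, 9 had a negative log2 fold change, against 50.4% of all tested genes, and the median was -0.12, against -0.00315 over all tested genes. Long genes more often had negative values: 44.3% of genes from 2 to 5 kb of exonic sequence (3 members), 63.6% from 5 to 10 kb (4 members) and 78.0% from 10 kb (3 members), against 36.6% under 2 kb, where no member lies. The genotypes did not overlap for 7 members, against 41.1% of tested genes, and for 6 of these Ppm1bCKO was lower, against 20.6%. For Gsk3a that separation amounts to 89.2 against 90.6 CPM between the nearest libraries. All 10 intervals included a difference of 0, and all lay between -1 and 1 on the log2 scale, with an outermost bound of -0.86. Without Ppm1bCKO replicate 2 the median was -0.05.

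**Figure D1:**
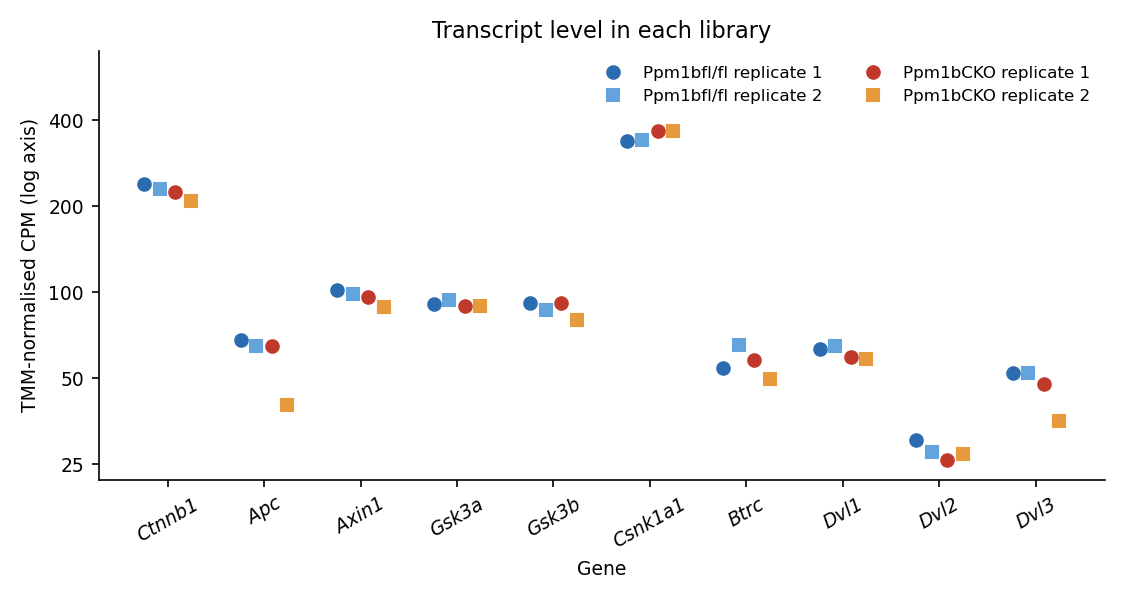
TMM-normalised CPM (log axis) of the 10 genes, with 1 point per library, blue for Ppm1bfl/fl and red or orange for Ppm1bCKO. Ctnnb1 sits between 208 and 239 CPM in all 4 libraries, and the points that stand off from the rest are Apc at 40.3 CPM and Dvl3 at 35.4 CPM, both in Ppm1bCKO replicate 2.

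Of the scaffolds, Apc had the lowest log2 fold change of the set, with a low level in 1 library. Apc, the large scaffold that holds β-catenin in the complex and is a tumour suppressor (ENSMUSG00000005871.15, chromosome 18), stood at 68.2 and 64.8 CPM in Ppm1bfl/fl, against 65.0 and 40.3 CPM in Ppm1bCKO. The first 3 values are alike and only Ppm1bCKO replicate 2 is low, at 61.1% of the mean of the other 3. The log2 fold change was -0.34 ± 0.23 (SE; edgeR adjusted p = 0.723). It was -0.03 without Ppm1bCKO replicate 2 (edgeR adjusted p = 0.999) and -0.72 without replicate 1 (edgeR adjusted p = 0.00314). In the latter fit replicate 2 alone represents the genotype and is assumed to vary like the Ppm1bfl/fl libraries, and 3336 genes of the whole table passed. The Ppm1bCKO replicates differed from each other by 0.69 on the log2 scale for Apc, and the Ppm1bfl/fl replicates by 0.07.

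Axin1, the scaffold on which the kinases assemble (ENSMUSG00000024182.16, chromosome 17, 26138688 to 26195811), lay close to Ctnnb1 in its pattern over the libraries. Such closeness was common among the genes compared, as described below. Axin1 stood at 102 and 98.8 CPM in Ppm1bfl/fl, against 96.1 and 89.0 CPM in Ppm1bCKO. The order of the libraries is the same as for Ctnnb1, highest in Ppm1bfl/fl replicate 1 and lowest in Ppm1bCKO replicate 2. The log2 fold change was -0.11 ± 0.16 (SE; edgeR adjusted p = 0.827), and -0.06 and -0.17 when Ppm1bCKO replicate 2 or 1 was left out.

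Of the kinase genes, the GSK3 pair had the log2 fold changes nearest to 0 of the set. Gsk3a (ENSMUSG00000057177.12, chromosome 7, 25228258 to 25237851) stood at 90.6 and 93.7 CPM in Ppm1bfl/fl, against 89.2 and 89.1 CPM in Ppm1bCKO, a log2 fold change of -0.05 ± 0.16 (SE; edgeR adjusted p = 0.932). Gsk3b (ENSMUSG00000022812.14, chromosome 16, 38089001 to 38246084) stood at 91.6 and 86.4 CPM and at 91.7 and 79.7 CPM, and its genotypes overlapped. Its log2 fold change of -0.05 ± 0.16 was 0.04 without Ppm1bCKO replicate 2 and 0.09 after removal of the trend with gene length in each library. Csnk1a1 encodes casein kinase 1α, which places the priming phosphate on β-catenin (ENSMUSG00000024576.14, chromosome 18). It was the single member with a positive value, at 337 and 341 CPM in Ppm1bfl/fl and 366 and 368 CPM in Ppm1bCKO. The replicates of each genotype lay within a few CPM of each other, and the log2 fold change was 0.12 ± 0.16 (SE; edgeR adjusted p = 0.832).

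Btrc, which encodes the ligase subunit that reads the phosphorylated stretch printed above (ENSMUSG00000025217.15, chromosome 19, 45363734 to 45530013), stood at 54.4 and 65.2 CPM in Ppm1bfl/fl. In Ppm1bCKO it stood at 57.8 and 49.5 CPM. The Ppm1bfl/fl libraries were farther apart than the genotype means, which were 59.8 ± 7.62 and 53.6 ± 5.86 CPM (SD, n = 2). The log2 fold change was -0.16 ± 0.18 (SE; edgeR adjusted p = 0.791), and 0.09 once the trend with gene length was removed. It was -0.02 when Ppm1bfl/fl replicate 2 was left out, -0.05 when Ppm1bCKO replicate 2 was, and -0.29 and -0.28 when replicate 1 of either genotype was.

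The Dishevelled genes encode the proteins that carry the Wnt receptor's signal to the complex. Dvl1 (ENSMUSG00000029071.16, chromosome 4, 155847402 to 155859303) stood at 63.4 and 64.8 CPM in Ppm1bfl/fl, against 59.3 and 58.5 CPM in Ppm1bCKO. Dvl2 (ENSMUSG00000020888.16, chromosome 11, 70000595 to 70012301) stood at 30.4 and 27.6 CPM and at 25.9 and 27.1 CPM. In both genes the genotypes stood apart by a few CPM at most, and the log2 fold changes were -0.12 ± 0.16 and -0.13 ± 0.18 (SE). That of Dvl2 ran from -0.20 to -0.06 over left-out libraries, both ends from leaving out a Ppm1bfl/fl replicate. Dvl3 (ENSMUSG00000003233.12, chromosome 16, 20516982 to 20534010) stood at 52.0 CPM in both Ppm1bfl/fl libraries, against 47.5 and 35.4 CPM in Ppm1bCKO. The low value is again that of Ppm1bCKO replicate 2, at 70.0% of the mean of the other libraries. The log2 fold change of Dvl3 was -0.33 ± 0.19 (SE; edgeR adjusted p = 0.717), -0.13 without Ppm1bCKO replicate 2, and -0.56 without replicate 1 (edgeR adjusted p = 0.0154).

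**Figure D2:**
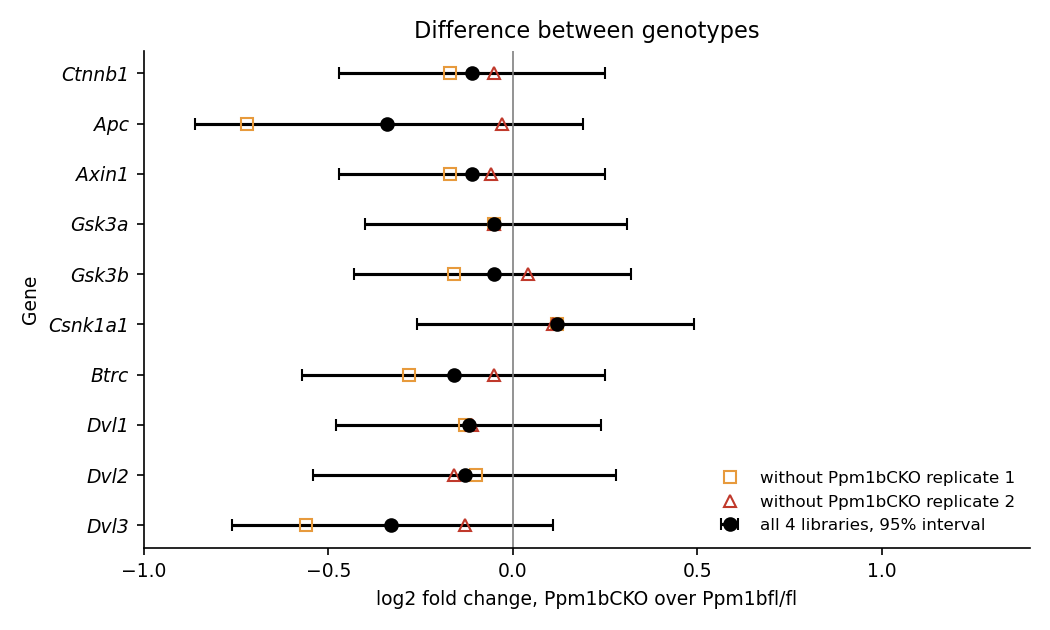
Log2 fold change of Ppm1bCKO over Ppm1bfl/fl for each gene. Black points with bars are the estimate and 95% interval from all 4 libraries, and open squares and triangles the estimate without Ppm1bCKO replicate 1 or 2. Every bar crosses 0, and the open symbols part most for Apc (-0.72 and -0.03) and Dvl3 (-0.56 and -0.13).

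Ppm1bCKO replicate 2 had less of long transcripts and more of short ones than the other libraries. Across 1300 tested genes with 10 kb or more of exonic sequence, its median log2 value over the mean of the other 3 libraries was -0.42. Across 3969 genes under 2 kb it was 0.30. The corresponding medians of the other libraries lay between 0.07 and 0.17 for the long class and between -0.15 and -0.13 for the short class. Each of these was taken over a mean that includes Ppm1bCKO replicate 2, which tilts it the other way. None of the members has under 2 kb of exonic sequence, and 3 have 10 kb or more. Of these, Apc (16.1 kb) lay at -0.71 in Ppm1bCKO replicate 2 and Btrc (16.9 kb) at -0.26, whereas Csnk1a1 (10.5 kb) lay at 0.08. In the class from 5 to 10 kb, whose median was -0.17, Dvl3 lay at -0.51, Gsk3b at -0.17, Ctnnb1 at -0.15 and Dvl2 at -0.05. Ppm1bCKO replicate 2 was the lowest of the 4 libraries for 8 of 10 members, against 37.2% of tested genes, and lay under Ppm1bCKO replicate 1 for 8 of 10, against 49.7%. After removal of each library's length trend, the log2 fold change was -0.12 for Apc (edgeR adjusted p = 0.805), -0.26 for Dvl3 (edgeR adjusted p = 0.670) and -0.07 for Ctnnb1 (edgeR adjusted p = 0.881). The source of the length trend was not tested.

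**Figure D3:**
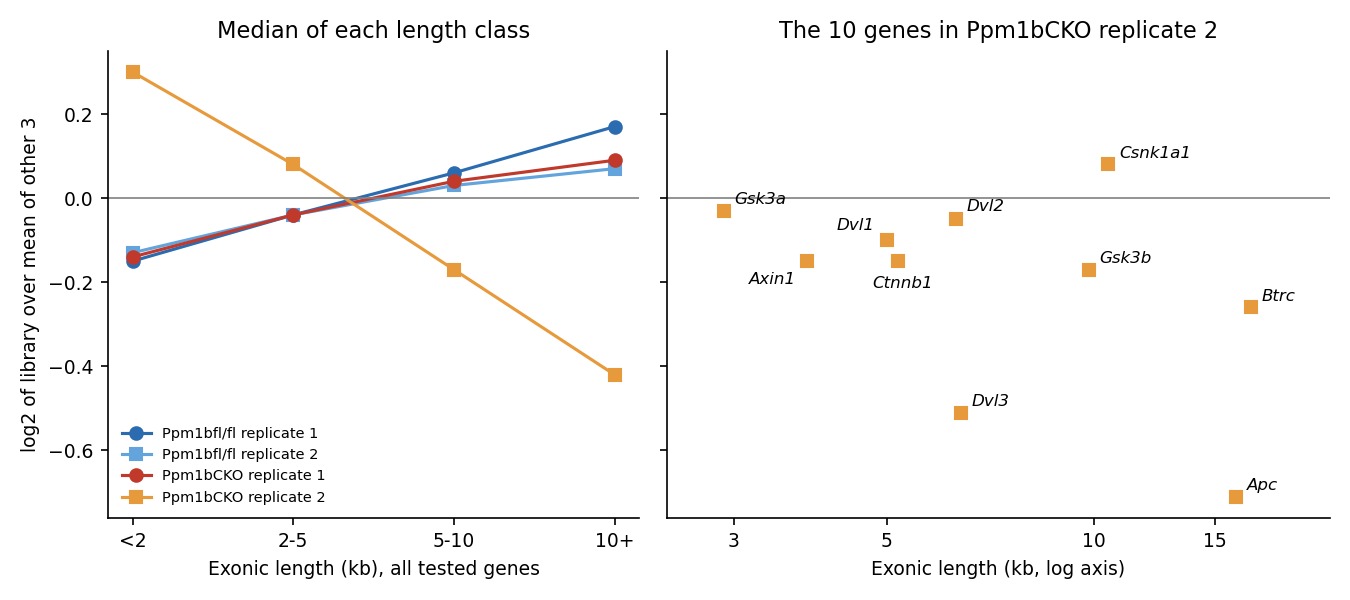
Left, median log2 ratio of each library over the mean of the other 3 for tested genes in 4 classes of exonic length. Right, the same ratio of the 10 genes in Ppm1bCKO replicate 2 against exonic length (log axis). The line of Ppm1bCKO replicate 2 runs from 0.30 to -0.42, and Apc and Dvl3 lie lowest at -0.71 and -0.51. The opposite slope of the other lines follows in part from having that library in their means.

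Levels can be set against each other between genes only per length, as CPM per kilobase of exonic sequence. On that scale Ctnnb1 was highest, at a mean of 43.4 over the 4 libraries (40.1 to 46.0), above 91.9% of tested genes. Csnk1a1 (33.6), Gsk3a (31.2) and Axin1 (25.2) followed. Then came Dvl1 (12.3), Gsk3b (8.89), Dvl3 (7.29), Dvl2 (4.41), Apc (3.70) and Btrc (3.35). The first 8 held the same rank in every library, and only Apc and Btrc exchanged places. The ranges over libraries overlapped between Csnk1a1 and Gsk3a, Gsk3b and Dvl3, Dvl2 and Apc, and Apc and Btrc. They did not overlap between the other neighbours. Within every library, however, Csnk1a1 lay above Gsk3a, Gsk3b above Dvl3 and Dvl2 above Apc. The scaffold Axin1 was thus measured at a level well above that of the scaffold Apc in each library (23.2 to 26.6 against 2.50 to 4.23 CPM per kilobase). Exonic length sums every annotated exon, so a gene whose cells use a short isoform reads too low on this scale, and long genes read lower in Ppm1bCKO replicate 2.

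Shares within gene families do not depend on how the libraries were scaled to each other. A trend with length inside a library can move them, and they rest on annotated exonic length. In Ppm1bfl/fl replicate 1, Gsk3a had 2410 reads over 2900 bases and Gsk3b 2439 reads over 9831 bases. Gsk3a made up 77.0% and 78.6% of the reads per kilobase of Gsk3a and Gsk3b in Ppm1bfl/fl, and 76.7% and 79.1% in Ppm1bCKO. The genotypes overlapped completely, with means of 77.8% ± 1.13 and 77.9% ± 1.69 (SD, n = 2; two-sided exact permutation p = 1). Of the Dishevelled reads per kilobase, Dvl1 took 49.5% and 50.9% in Ppm1bfl/fl and 50.7% and 54.4% in Ppm1bCKO, the largest share of the family in all 4 libraries. Dvl2 took 17.2% to 20.0%. Dvl3 took 31.7% and 31.9% in Ppm1bfl/fl and 31.7% and 25.7% in Ppm1bCKO, so that its share too was low only in Ppm1bCKO replicate 2 (two-sided exact permutation p = 0.667 for each of the 3).

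Axin1 accounted for nearly all of the axin reads per kilobase, 95.6% and 96.3% in Ppm1bfl/fl and 97.4% and 97.0% in Ppm1bCKO. The rest was Axin2, a paralog induced by β-catenin as negative feedback. The libraries did not overlap, and the difference of 1.26 percentage points gave a two-sided exact permutation p of 0.333, the smallest that 2 against 2 libraries allow. Btrc made up 13.2% and 16.4% of the reads per kilobase of Btrc and its paralog Fbxw11 in Ppm1bfl/fl and 13.1% and 13.6% in Ppm1bCKO (two-sided exact permutation p = 0.667). Here too length weighs: in Ppm1bfl/fl replicate 1, Btrc had 1449 reads over 16908 bases and Fbxw11 2449 over 4327. None of these 6 shares could pass the threshold, because the smallest p that 2 against 2 libraries allow, 0.333, lies above it. The permutation test therefore cannot decide whether a share differed between the genotypes. The counting interval of any single share (95%, Wilson, carried to the per-kilobase scale) reached at most 1.81 percentage points to either side. Such intervals hold only the error of counting, and reads counted without molecular identifiers need not be separate molecules.

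**Figure D4:**
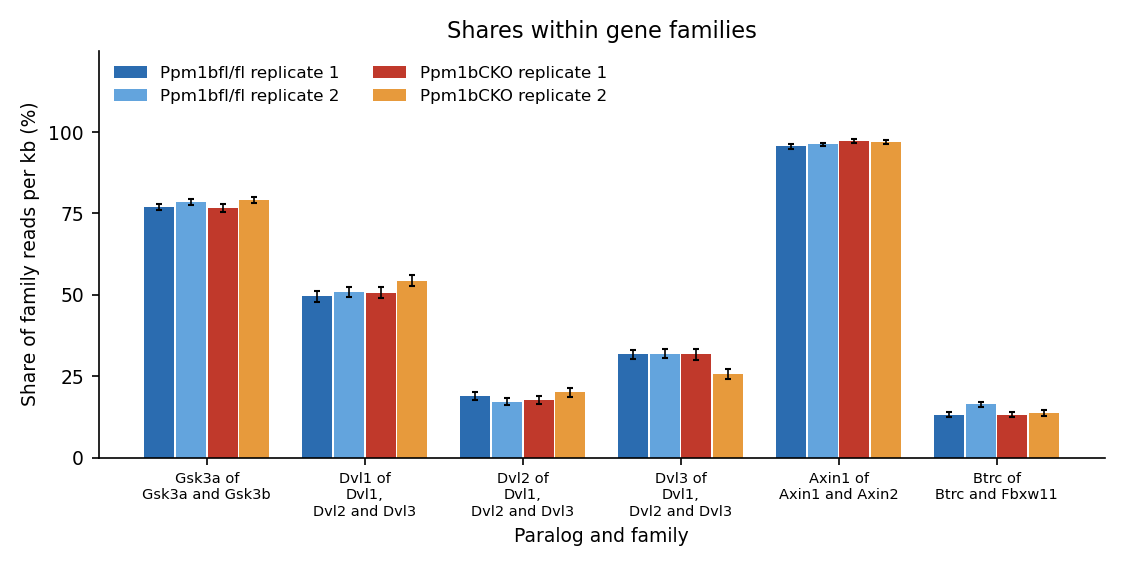
Share of each paralog in its family's reads per kilobase, in percent, for each library, with bars from 0 and 95% counting intervals. The bars that stand off from the other 3 of their paralog are Dvl3 (25.7% against 31.7% to 31.9%) and Dvl1 (54.4% against 49.5% to 50.9%) in Ppm1bCKO replicate 2, and Btrc in Ppm1bfl/fl replicate 2 (16.4% against 13.1% to 13.6%).

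The pattern of Ctnnb1 over the 4 libraries was compared with that of 6427 genes with an average log2 CPM of at least 5, by the root mean square distance between log2 CPM profiles, each centred on its own mean. Among genes outside the set the closest were Trim35 (0.00377), Mapk14 (0.00603), Unc13d (0.0089), Mcmbp (0.00998) and Atmin (0.0112). Axin1 lay at 0.00705, with 2 genes closer. Gsk3b (0.0417) and Dvl1 (0.0468) followed among the members, and Apc was farthest at 0.243. A distance under 0.1 was common, with 1535 genes, and the distances are a description with no test.

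Among other genes of the pathway, 0 of 66 tested genes in 8 lists passed (edgeR, DESeq2 and limma-voom), with 33 positive and 33 negative log2 fold changes, a median of 0.00 and 7 at an unadjusted p under 0.05, against 6.44% of all tested genes. The genotypes did not overlap for 43.9% of them, close to the 41.1% of all tested genes. Without Ppm1bCKO replicate 1, more of these genes and more of the whole table passed, but replicate 2 alone then represents the genotype. For the signs in each list below, the share over all tested genes was 50.4% negative. By exonic sequence it was 36.6% under 2 kb, 44.3% from 2 to 5 kb, 63.6% from 5 to 10 kb and 78.0% from 10 kb. The lists were not split by length. Genes for scaffold partners and axin turnover had 2 positive and 6 negative values of 8 tested (median -0.31). Axin2 stood at 6.80 and 5.47 CPM in Ppm1bfl/fl, against 3.74 and 3.96 CPM in Ppm1bCKO. Both Ppm1bCKO values lie under both others, and the log2 fold change was -0.67 ± 0.27 (SE; edgeR adjusted p = 0.717), from -0.82 to -0.51 when single libraries were left out. Amer2, a relative of the APC-binding protein gene Amer1, stood at 3.64 and 3.75 CPM and at 2.99 and 0.843 CPM, with the low value in Ppm1bCKO replicate 2. Its log2 fold change of -0.95 ± 0.51 (SE; edgeR adjusted p = 0.717) was -0.31 without that library and -2.13 without Ppm1bCKO replicate 1. Amer2 has 10660 bases of exonic sequence, and its value was -0.84 with the length trend removed.

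The ubiquitin ligase core that works with Btrc had values of the other sign. All 4 tested genes had positive values (median 0.25), and 0 passed. Of all tested genes 50.4% were negative, and 44.3% of those from 2 to 5 kb, the class of Rbx1 and Skp1a. Rbx1, the RING subunit, stood at 48.9 and 51.7 CPM in Ppm1bfl/fl, against 58.7 and 83.0 CPM in Ppm1bCKO (0.49 ± 0.20 on the log2 scale, SE; edgeR adjusted p = 0.717). Skp1a, the adaptor, stood at 115 and 122 CPM and at 135 and 190 CPM (0.45 ± 0.20, SE; edgeR adjusted p = 0.717). Both were highest in Ppm1bCKO replicate 2, and without that library their log2 fold changes were 0.22 and 0.18. Without Ppm1bCKO replicate 1 they were 0.72 and 0.67 (edgeR adjusted p = 0.00236 and 0.0032). Fbxw11 stood at 92.0 and 85.1 CPM and at 98.0 and 80.5 CPM, with overlapping genotypes (0.01 ± 0.17, SE).

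Genes of PP2A, the phosphatase that opposes the kinases of the complex, had 7 positive and 2 negative values of 9 tested (median 0.11). The 2 with the smallest p were Ppp2r5a, a regulatory subunit (0.22 ± 0.16, SE; edgeR adjusted p = 0.725), and Ppp2cb, a catalytic subunit (0.17 ± 0.16, SE; edgeR adjusted p = 0.768). The other casein kinase 1 genes had 3 positive and 2 negative values of 5 (median 0.02), with Csnk1g1 at -0.25 ± 0.19 and Csnk1e at 0.15 ± 0.16 (SE). Leaving out Ppm1bCKO replicate 2 gave 0.14 for Ppp2r5a, 0.07 for Ppp2cb and -0.10 for Csnk1g1, and leaving out Ppm1bfl/fl replicate 2 gave 0.06 for Csnk1e. Removal of the length trend gave -0.0095 for Csnk1g1, which has 15621 bases of exonic sequence. It gave 0.38 for Ppp2r5a, -0.0037 for Ppp2cb and 0.23 for Csnk1e. Regulators of Dishevelled had 3 positive and 3 negative values of 6 tested (median -0.06), and 4 more, Dixdc1, Dact2, Nkd1 and Cxxc4, were too low to test. Cxxc5 stood at 23.1 and 18.5 CPM and at 22.3 and 38.4 CPM, and Ccdc88c at 222 and 226 CPM and at 225 and 142 CPM. In both it was Ppm1bCKO replicate 2 that stood apart, in opposite directions (0.55 ± 0.27 and -0.29 ± 0.22 on the log2 scale, SE). Without that library they were 0.10 and 0.0069, and without Ppm1bCKO replicate 1 they were 0.89 and -0.66. With the length trend removed they were 0.47 for Cxxc5 and -0.13 for Ccdc88c, which has 11386 bases of exonic sequence.

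Nuclear partners of β-catenin had 6 positive and 11 negative values of 17 tested (median -0.15), and Pygo1 was too low to test. Lef1, a DNA-binding partner and itself a Wnt target, stood at 10.2 and 8.59 CPM in Ppm1bfl/fl, against 13.9 and 16.3 CPM in Ppm1bCKO. The genotypes did not overlap, and the log2 fold change was 0.69 ± 0.23 (SE; edgeR adjusted p = 0.645), 0.56 without Ppm1bCKO replicate 2 and 0.80 without replicate 1 (edgeR adjusted p = 0.0219). Lef1 is also transcribed in early B and T lymphoid cells, and the summed level of 6 B cell markers was 173 and 176 CPM in Ppm1bfl/fl and 262 and 556 CPM in Ppm1bCKO, with 6 of 6 log2 fold changes positive and 0 called. The part of those cells in the Lef1 values was not tested. Ep300, an acetyltransferase that serves as coactivator, stood at 217 CPM in both Ppm1bfl/fl libraries, against 201 and 104 CPM in Ppm1bCKO (-0.51 ± 0.28, SE; edgeR adjusted p = 0.717). Its log2 fold change was -0.11 without Ppm1bCKO replicate 2 and -1.06 without replicate 1. Ep300 has 14273 bases of exonic sequence, and its value was -0.33 with the length trend removed.

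Of 12 tested Wnt target genes, 5 had positive and 7 negative values (median -0.13), and 0 passed, with 4 at an unadjusted p under 0.05, against 6.44% of all tested genes. The genotypes did not overlap for 9 of the 12, against 41.1% of all tested genes. Besides Lef1, the target with the smallest p was Znrf3, a feedback gene whose product removes Wnt receptors. It stood at 16.9 and 15.1 CPM in Ppm1bfl/fl, against 12.0 and 9.73 CPM in Ppm1bCKO (-0.56 ± 0.22 on the log2 scale, SE; edgeR adjusted p = 0.717). Its log2 fold change was -0.72 without Ppm1bCKO replicate 1 (edgeR adjusted p = 0.0323) and -0.42 without replicate 2. The 2 feedback genes Axin2 and Znrf3 were lower and Lef1 was higher in both Ppm1bCKO libraries than in both Ppm1bfl/fl libraries. These named targets thus did not share a direction.

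RefSeq (GRCm38.p6) promoter windows, from 250 bases before to 50 after the start of transcription, were matched for 6 of the 10 members, with 7 windows in all, and not for Apc, Axin1, Csnk1a1 and Btrc. The windows held a median of 30 CG dinucleotides, against 7 over all 32851 windows. All members were abundant enough to be tested, and no median over tested genes alone was taken. The letters NNCAAAG with AA, AT, TA or TT in place of NN, to which TCF and LEF factors bind, were searched on both strands. They were found in 1 of the 7 windows, that of Gsk3a, and in 16.9% of all windows. A match is a description of the sequence and not a binding site.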

How the data were processed

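The authors deposited whole-number read counts per gene, not normalised, for 4 libraries. The build was mm10, and featureCounts 2.0.1, HISAT2 2.2.0 and Trim Galore 0.6.7 are named, per the submitters' processing notes. The sources used here give no strand setting, annotation release or treatment of multiply mapped reads, so reads of near-identical or overlapping genes are uncertain. Of 55399 identifiers, 55139 were named from GENCODE M21. Exonic lengths and coordinates are those of the deposited table.

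The test was the quasi-likelihood test of edgeR 4.0.16 (R 4.3.3), fitted robustly on these counts without covariates, after TMM scaling and filterByExpr (count minimum 10, total minimum 15). P-values were adjusted by Benjamini-Hochberg over 16393 genes, with a threshold of 0.05. Fold changes are Ppm1bCKO over Ppm1bfl/fl. The fit was tested on simulated data. Alternatives were DESeq2 1.42.0, its size factors in edgeR, limma-voom (limma 3.58.1), other low-count filters, a replicate block, removal of the trend with gene length (lowess span 0.3), no immunoglobulin genes, and each library left out. Replicates were separate libraries by their counts (chi-square per degree of freedom 22.9 and 47.8).

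The members and lists were chosen with earlier results of these data known. Named were all members, Ppm1b, Axin2, Lef1, Fbxw11, the 2 genes of smallest p in each list and the 5 genes closest to Ctnnb1.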

Additional observations from a re-analysis of the deposited data

How the results depend on the processing

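Of 120 values of the 10 member genes under 12 alternatives each, 115 kept their direction and their side of the threshold. The sign turned for Gsk3b (0.09) and Btrc (0.09) with the length trend removed, and for Gsk3b without Ppm1bCKO replicate 2 (0.04, in a range of -0.16 to 0.04 over left-out libraries). Members called numbered 0 to 2, and genes called in the partner lists 0 to 19, when single libraries were left out. Both maxima came without Ppm1bCKO replicate 1, where Apc and Dvl3 were the members that passed. The highest count over the whole table came from the same fit. Whether the members or the lists differ from the whole table in that fit was not tested. In every other setting 0 members and 0 genes of the partner lists passed. The member median ran from -0.17 to -0.05 over left-out libraries. Genes called in the whole table numbered 61, and 199 by DESeq2, 311 without a filter, 207 with the replicate block, 0 without immunoglobulin genes (edgeR), and 94 to 3336 with single libraries left out.

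The numbers of the replicates are not stated to pair the samples. Over genes, the deviations of the libraries numbered 1 correlated at 0.0641, and with the replicate block 0 members passed, Apc at -0.38 (edgeR adjusted p = 0.504) and Ctnnb1 at -0.11 (edgeR adjusted p = 0.873).

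Over left-out libraries, the difference in share (Ppm1bCKO minus Ppm1bfl/fl, percentage points) ran from -1.09 to 1.30 for Gsk3a, -0.456 to 1.92 for Dvl2 and -3.05 to 0.201 for Btrc, changing sign. It kept its sign for Dvl1 (0.524 to 4.19), Dvl3 (-6.11 to -0.0685) and Axin1 (0.891 to 1.63). Among partner genes the sign turned for Ppp2cb with the length trend removed (-0.0037), for Ccdc88c (-0.66 to 0.0069) and Cdh1 (-0.84 to 0.14) without Ppm1bCKO replicate 2, and for Fbxw11 (-0.14 to 0.15) without Ppm1bfl/fl replicate 2 (-0.05) and Ppm1bCKO replicate 1 (-0.14). Most partner genes were named for the smallest p of their list in these same libraries. Calls among them in a fit without 1 library are therefore no separate result. The causes were not tested. Each member had at least 589 reads in every library. Each genotype had 2 libraries.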

Other observations

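β-catenin also sits at cell junctions, where it links cadherins to α-catenin. Of 8 tested genes of that role, 4 had positive and 4 negative log2 fold changes (median 0.01), and 0 passed in edgeR, with 1 at an unadjusted p under 0.05. That gene was Cdh5, the cadherin of endothelial cells, which stood at 3.01 and 2.62 CPM in Ppm1bfl/fl, against 4.84 and 5.94 CPM in Ppm1bCKO (0.94 ± 0.29 on the log2 scale, SE; edgeR adjusted p = 0.566). That value was 0.78 when Ppm1bCKO replicate 2 was left out and 1.08 when replicate 1 was (edgeR adjusted p = 0.0302). The summed level of 7 markers of stroma and endothelium, which include Cdh5, was 493 and 632 CPM in Ppm1bfl/fl and 853 and 624 CPM in Ppm1bCKO, and the part of those cells in the Cdh5 values was not tested. Cdh1, the epithelial cadherin, which erythroid progenitors also carry, stood at 28.9 and 26.5 CPM in Ppm1bfl/fl, against 30.4 and 15.5 CPM in Ppm1bCKO. Only Ppm1bCKO replicate 2 was low, and the log2 fold change was -0.27 ± 0.30 (SE; edgeR adjusted p = 0.787), 0.14 without that library and -0.84 without Ppm1bCKO replicate 1 (edgeR adjusted p = 0.00667).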
